A study of Mus musculus with 15 samples.

Results

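The nuclear-encoded subunits of the mitochondrial respiratory chain were followed in mouse cortex 3 hours after magnetic stimulation of the brain. Members were taken by gene symbol: the Nduf genes of the A, B, C, S and V series, Sdha to Sdhd, the Uqcr genes, the Cox genes of series 4 to 8 and the Atp5 genes, without pseudogenes and with at least 150 counts over the 15 libraries. The symbols matched 85 of 56748 gene identifiers, and 80 were kept: 35 of complex I, 4 of complex II, 8 of complex III, 16 of complex IV and 17 of complex V. All 80 passed the filter on low counts and were among the 22998 genes tested. Cox6c2 was left out as a pseudogene, and Cox7b2, Cox8b, Cox8c and a second identifier named Atp5o were left out with 86, 72, 1 and 0 counts. The members just inside the minimum were Cox4i2 with 306 counts, Cox7a1 with 341 and Cox6b2 with 354. Ndufa4 carries a complex I name but is a complex IV subunit and is counted there.

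Wild-type C57BL/6J mice received a single session of intermittent theta-burst stimulation (iTBS, 5 mice), continuous theta-burst stimulation (cTBS, 5 mice) or sham stimulation (5 mice). Both active protocols are forms of repetitive transcranial magnetic stimulation that deliver short bursts of pulses, in spaced trains (iTBS) or without a pause (cTBS). All animals were wild type, the sham mice carried no further treatment in the labels, and age and sex are not given there. The dissected area is somatosensory cortex in the titles but sensorimotor cortex in the design text. The libraries were made from total RNA of whole tissue after ribosomal RNA was removed, so they hold nuclear and unspliced RNA beside mature messenger RNA and mix neurons with glia and vessels.

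Complex I (NADH dehydrogenase) and complex II (succinate dehydrogenase, also an enzyme of the citric acid cycle) feed electrons into the chain. Complex III hands them to cytochrome c, complex IV (cytochrome c oxidase) passes them to oxygen, and complex V (ATP synthase) uses the proton gradient built by complexes I, III and IV to make ATP. A few subunits of complexes I, III, IV and V are encoded by mitochondrial DNA, while the genes described here lie in the nucleus and their proteins are imported. Cortical neurons draw on this pathway to restore ion gradients after firing, and several subunits exist as a form found in most tissues and a form found mainly in heart, skeletal muscle, lung or testis.

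Many of these genes are known to share promoter elements for the factors NRF1, GABPA (an ETS factor), YY1 and CREB, and 9 promoter stretches are shown as examples of the NRF1, ETS and CREB elements, with at least 1 from each complex. The sequences are from RefSeq on GRCm38.p6, an earlier build than the one named for the counts, and 66 of the 80 members had an entry in the table. Each stretch holds 60 bases read 5′ to 3′ on the gene's strand, with the motif in capitals. The motif is the 10-base NRF1 core in Ndufa11, Cox6a1, Atp5g2 and Atp5k, its 8-base form GCATGCGC in Sdhb, the cyclic AMP response element TGACGTCA in Ndufa10 and Uqcrfs1, and the ETS motif CCGGAAGT in Uqcr11 and, as its reverse complement, in Atp5h.
Ndufa11: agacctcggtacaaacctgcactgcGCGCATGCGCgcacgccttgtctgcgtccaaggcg
Ndufa10: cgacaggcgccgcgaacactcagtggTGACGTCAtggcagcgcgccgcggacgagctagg
Sdhb: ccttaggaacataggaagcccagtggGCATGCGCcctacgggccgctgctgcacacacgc
Uqcrfs1: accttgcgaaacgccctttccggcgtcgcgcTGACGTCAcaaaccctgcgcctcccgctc
Uqcr11: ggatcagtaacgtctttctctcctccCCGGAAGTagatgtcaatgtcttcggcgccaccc
Cox6a1: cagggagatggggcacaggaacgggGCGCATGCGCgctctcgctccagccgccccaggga
Atp5g2: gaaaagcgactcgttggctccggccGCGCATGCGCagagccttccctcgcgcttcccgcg
Atp5k: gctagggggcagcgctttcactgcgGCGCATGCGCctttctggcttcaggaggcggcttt
Atp5h: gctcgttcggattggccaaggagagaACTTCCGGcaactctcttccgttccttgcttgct

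These stretches lie at chr17:56717677-56717736 on the plus strand for Ndufa11, chr1:92473792-92473851 on the minus strand for Ndufa10, chr4:140961191-140961250 on the plus strand for Sdhb, chr13:30545317-30545376 on the minus strand for Uqcrfs1 and chr10:80406854-80406913 on the minus strand for Uqcr11. The others lie at chr5:115349086-115349145 on the minus strand for Cox6a1, chr15:102671055-102671114 on the minus strand for Atp5g2, chr5:108434415-108434474 on the minus strand for Atp5k and chr11:115419925-115419984 on the minus strand for Atp5h. All 9 motifs begin upstream of the annotated start, between 162 bases before it in Cox6a1 and 29 bases before it in Uqcrfs1.

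Over the window from 250 bases before to 50 bases after the start, searched on both strands, the 10-base NRF1 core was present in 5 of 66 member promoters (7.58%), against 264 of 27025 mouse promoters (0.977%). Its 8-base form GCATGCGC, which lies within the longer core, was present in 10 members (15.2%), against 2.80% of all promoters. The YY1 motif AAGATGGC was found in 9 members (13.6%), against 2.88%. For the cyclic AMP response element the figures were 4 members (6.06%) and 1.88%, and for the ETS motif 5 members (7.58%) and 4.00%. The SP1 motif GGGCGG was found in 40.9% of members and 35.9% of all promoters, and the TATA motif TATAAA in 7.58% and 14.2%. These matches describe the letters in the window and were not tested as sites. The 10 members with the 8-base NRF1 form had a median cTBS over sham log2 fold change of 0.21, the 56 members without it 0.17 and the 14 members without an entry 0.21. In iTBS over cTBS the medians were -0.20, -0.24 and -0.26, so the members with the form lay nearest to 0 there.

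The 80 genes were spread over 19 chromosomes, with 3 on the X chromosome (Ndufa1, Ndufb11 and Cox7b). They were short, with a median messenger RNA length of 737 bases, against 2747 bases over 15006 protein-coding genes, and a median gene span of 7370 bases, against 25036. Together they took 0.551% of all counts. Levels per length, in counts scaled to a common library size (CPM) per kilobase of messenger RNA (CPM per kb), differed widely within each complex. The median was 39.5 CPM per kb in complex I, 41.7 in complex II, 82.4 in complex III, 98.8 in complex IV and 54.0 in complex V. Highest was Atp5b, the catalytic beta subunit of ATP synthase, at 401 CPM per kb, followed by Cox8a at 270 and Cox6a1 at 251.

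The forms known from heart, muscle, lung or testis were near the bottom of the range. Cox4i2 had 0.855 CPM per kb, beside 205 for Cox4i1. Cox6a2 had 4.70 CPM per kb, beside 251 for Cox6a1. Cox7a1, the heart and muscle form, had 1.61 CPM per kb, beside 100 for Cox7a2, and Cox6b2, the testis form, had 1.58, beside 203 for Cox6b1. The 3 genes that encode the same mature c subunit of the ATP synthase rotor were closer, with 113 CPM per kb for Atp5g3, 80.6 for Atp5g2 and 32.1 for Atp5g1. These levels are means over all 15 libraries. The order of the 3 c subunit genes depends on the annotated messenger RNA length. That length was 2675.5 bases for Atp5g1, 718.5 for Atp5g3 and 586 for Atp5g2. In total counts over the 15 libraries Atp5g1 was the highest of the 3, with 43311, beside 41334 for Atp5g3 and 24046 for Atp5g2.

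Library totals ranged from 15385070 to 37929975 counts in iTBS, from 35545632 to 43770223 in cTBS and from 18484169 to 47807723 in sham. Cortical excitatory neuron markers had mean levels of 7.05 to 7.40 log2 CPM in iTBS, 7.06 to 7.41 in cTBS and 7.12 to 7.52 in sham. Choroid plexus markers stood apart in cTBS library 4 and in sham libraries 2 and 5, and thalamic markers in sham library 2. A list of 11 noncoding RNAs that stay in the nucleus, among them Malat1, had mean levels of 7.04 to 8.06 log2 CPM in iTBS, 6.06 to 7.31 in cTBS and 6.50 to 8.19 in sham. The lowest sham value belonged to sham library 4, which also had the largest total. The lowest iTBS value belonged to iTBS library 1, which had the largest iTBS total. Every cTBS total lay above every iTBS and sham total except those of iTBS library 1 and sham library 4. Depth thus differed between the groups. It was not used as a covariate, and its part in the members' differences was not tested.

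The mean level of the 80 genes was 5.10 ± 0.11 log2 CPM in iTBS, 5.31 ± 0.10 in cTBS and 5.15 ± 0.11 in sham (SD, n = 5 each). In single libraries it ran from 4.97 to 5.28 in iTBS, from 5.20 to 5.39 in cTBS and from 5.04 to 5.34 in sham. The cTBS libraries lay above 4 of 5 iTBS libraries and 4 of 5 sham libraries, the exceptions being iTBS library 1 and sham library 4. As a share of all counts, the members took 0.515% in iTBS, 0.587% in cTBS and 0.527% in sham. In whole tissue, fewer cells of a type and less RNA per cell cannot be told apart.

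**Figure D1:**
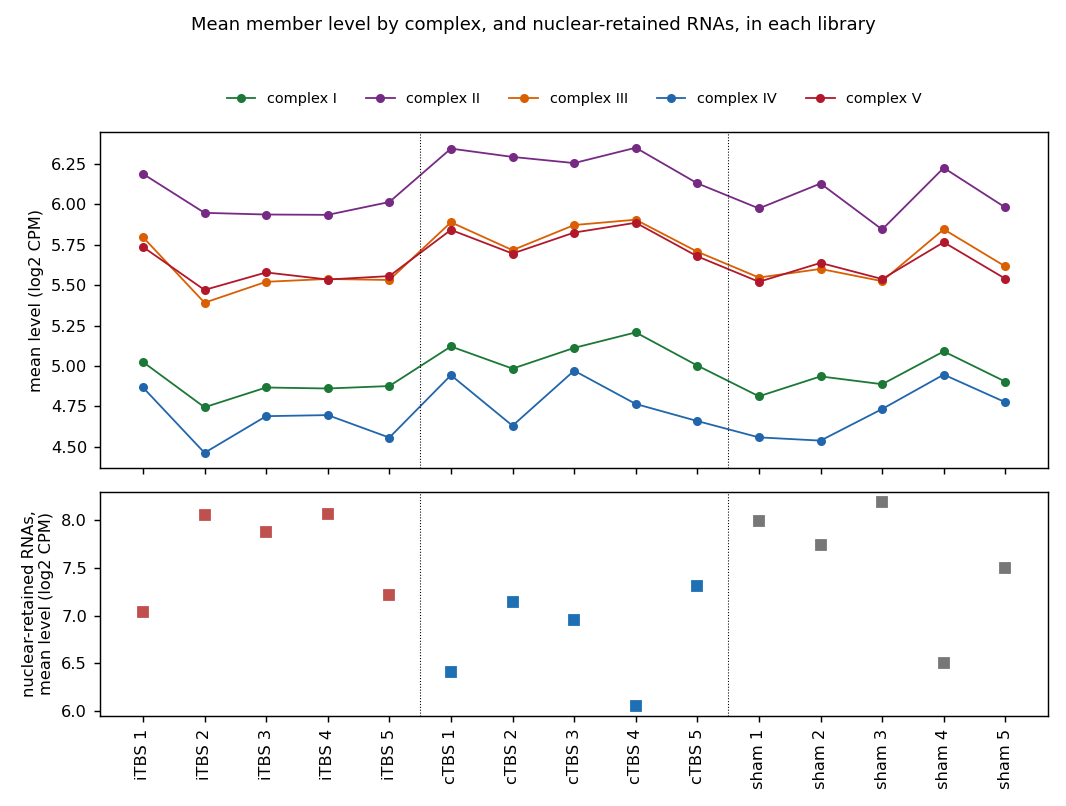
Mean level of the members of each complex (upper panel, log2 CPM, a line per complex) and of 11 nuclear-retained RNAs (lower panel, log2 CPM, squares) in each of the 15 libraries, with iTBS left of cTBS and sham. The cTBS libraries sit highest on average in each complex, and iTBS library 1 and sham library 4 reach the cTBS range and hold the lowest nuclear-retained RNA of their groups.

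The comparison of cTBS with sham asked how the 80 genes stood after continuous stimulation. No member passed an adjusted p of 0.05 in edgeR's quasi-likelihood test with Benjamini-Hochberg adjustment, the smallest adjusted p being 0.144, and 0% of all tested genes passed it. At an unadjusted p under 0.05, 35 of 80 members were higher in cTBS, against 6.80% of all tested genes, and 1 was lower, against 17.6%. The median log2 fold change of the members was 0.19, against -0.02 over all tested genes and 0.03 over 15247 protein-coding genes. Of the 80 members, 71 lay above 0, against 46.5% of all tested genes and 8911 of the 15247 protein-coding genes. Of the protein-coding genes, 1462 were higher and 1205 lower at unadjusted p under 0.05. No member had cTBS and sham values that did not overlap, against 0.626% of all tested genes with cTBS above sham and 0.713% with cTBS below it.

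These counts moved with single libraries. Without sham library 4, 47 members passed the adjusted threshold, all higher in cTBS, beside 9.67% of all tested genes, the members' median was 0.30 and 62 members were higher at unadjusted p, beside 19.1%. Without iTBS library 1, which is in neither group but enters the shared estimate of spread, 55 members were past the unadjusted threshold, beside 28.5% of all tested genes, and none the adjusted one. With limma-voom and library quality weights, 45 members passed the adjusted threshold, beside 6.82% of all tested genes, and with DESeq2 none did.

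**Figure D2:**
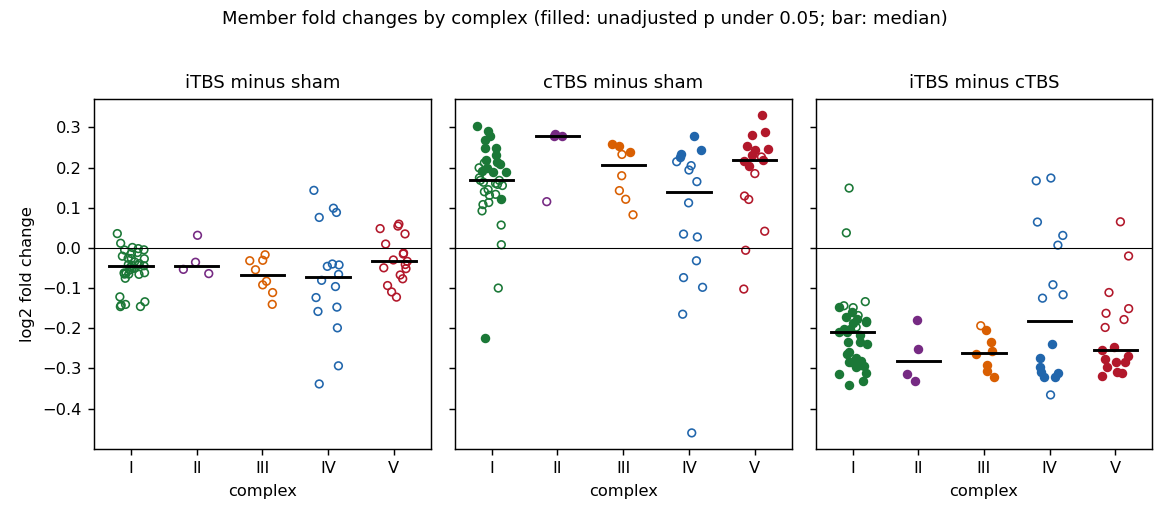
log2 fold change of each member in the 3 comparisons (iTBS over sham, cTBS over sham, iTBS over cTBS), by complex; each point is a gene, filled at unadjusted p under 0.05, and the bar is the median of the complex. Medians of cTBS over sham lie between 0.14 and 0.28, those of iTBS over cTBS between -0.28 and -0.18, and those of iTBS over sham between -0.07 and -0.03.

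In complex I, the median log2 fold change of cTBS over sham was 0.17. At unadjusted p under 0.05, 15 of 35 genes were higher and 1 lower, against 6.80% and 17.6% of all tested genes. The 7 nuclear-encoded core subunits, most of which carry the flavin or the iron-sulfur clusters, all lay above 0, with 5 at unadjusted p under 0.05. Ndufs3 had 48.1, 43.6, 44.0, 42.3 and 42.0 CPM in the 5 iTBS libraries, 55.5, 54.2, 52.2, 51.8 and 45.9 CPM in the 5 cTBS libraries and 46.1, 48.04, 44.6, 45.4 and 43.8 CPM in the 5 sham libraries. Ndufv1 had 94.0, 79.0, 88.0, 77.2 and 91.9 CPM in the 5 iTBS libraries, 103, 109.6, 105, 112 and 94.2 CPM in the 5 cTBS libraries and 82.4, 89.8, 79.6, 103 and 85.8 CPM in the 5 sham libraries. For Ndufs3 (ENSMUSG00000005510), a core subunit of the arm that reaches into the matrix, and Ndufv1 (ENSMUSG00000037916), which binds NADH and flavin mononucleotide, 4 of 5 cTBS libraries lay above at least 4 of 5 sham libraries in each, and cTBS library 5 was the lowest cTBS value. It lay below sham libraries 1 and 2 for Ndufs3 and below sham library 4 for Ndufv1. The log2 fold change of Ndufs3 was 0.19 ± 0.06 (SE) with an adjusted p of 0.144 in edgeR, and that of Ndufv1 was 0.25 ± 0.08 with an adjusted p of 0.144.

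Among the other core subunits, cTBS over sham log2 fold changes were 0.27 ± 0.09 for Ndufs7 and 0.12 ± 0.06 for Ndufs1, which bind iron-sulfur clusters on the path of electrons to ubiquinone. Ndufs8 and Ndufv2, which also bind iron-sulfur clusters, were at 0.17 ± 0.09 and 0.17 ± 0.09 and were not past the unadjusted threshold. The other 28 subunits are accessory ones that stabilise the complex. Among them, Ndufb11 was at 0.30 ± 0.10 and Ndufb2 was the sole member lower at unadjusted p, at -0.22 ± 0.10. Ndufb2 shares exonic bases with genes on both strands, and how the authors' counting split such reads is not given in the sources used here.

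In complex II, the median was 0.28. At unadjusted p under 0.05, 3 of 4 genes were higher, beside 6.80% of all tested genes. Sdhb had 61.1, 51.4, 54.7, 53.1 and 55.3 CPM in the 5 iTBS libraries, 72.8, 70.8, 69.9, 72.7 and 60.5 CPM in the 5 cTBS libraries and 54.9, 61.4, 47.6, 66.4 and 55.4 CPM in the 5 sham libraries. Sdhd had 41.0, 33.5, 32.2, 32.8 and 32.7 CPM in the 5 iTBS libraries, 46.3, 42.0, 45.1, 42.5 and 38.3 CPM in the 5 cTBS libraries and 34.1, 37.5, 30.4, 40.9 and 33.5 CPM in the 5 sham libraries. For Sdhb (ENSMUSG00000009863), the iron-sulfur subunit, and Sdhd (ENSMUSG00000000171), a membrane anchor, cTBS libraries 1 to 4 lay above every sham library, cTBS library 5 did not, and sham library 4 was the highest sham library. The log2 fold change was 0.28 ± 0.08 for Sdhb and 0.28 ± 0.08 for Sdhd, each with an adjusted p of 0.144 in edgeR.

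Sdhc, the other membrane anchor beside Sdhd, averaged 40.5 ± 3.36 CPM in iTBS, 48.2 ± 3.65 CPM in cTBS and 39.5 ± 5.36 CPM in sham (SD, n = 5 each), with a cTBS over sham log2 fold change of 0.28 ± 0.09. Sdha, the flavoprotein that oxidises succinate, averaged 223 ± 18.1 CPM in iTBS, 252 ± 19.0 CPM in cTBS and 233 ± 10.2 CPM in sham, and its log2 fold change of 0.12 ± 0.07 was not past the unadjusted threshold. All 4 complex II genes thus lay above 0 in cTBS over sham.

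In complex III, the median was 0.21. At unadjusted p under 0.05, 3 of 8 genes (Uqcrc2, Uqcrc1 and Uqcrq) were higher, beside 6.80% of all tested genes. Uqcrc2 had 103, 88.3, 82.9, 84.0 and 87.8 CPM in the 5 iTBS libraries, 116, 112, 113, 116 and 94.3 CPM in the 5 cTBS libraries and 87.5, 100.3, 81.4, 105 and 88.5 CPM in the 5 sham libraries. Uqcrc1 had 165, 133, 146, 135 and 149 CPM in the 5 iTBS libraries, 181, 169.5, 185, 184 and 149 CPM in the 5 cTBS libraries and 139, 139, 126, 175 and 157 CPM in the 5 sham libraries. Uqcrc1 and Uqcrc2 encode the core proteins on the matrix side. For Uqcrc2 (ENSMUSG00000030884), cTBS library 5 lay well below the other 4 cTBS libraries, and for both genes sham library 4 was the highest sham library. Its log2 fold change was 0.25 ± 0.08 with an adjusted p of 0.144 in edgeR, and that of Uqcrc1 (ENSMUSG00000025651) was 0.24 ± 0.09 with an adjusted p of 0.147. Uqcrfs1, the Rieske iron-sulfur protein, was at 0.18 ± 0.10, and the hinge protein gene Uqcrh at 0.14 ± 0.07, neither past the unadjusted threshold. All 8 genes of the complex lay above 0.

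In complex IV, the median was 0.14. At unadjusted p under 0.05, 4 of 16 genes (Cox7a2l, Cox4i1, Ndufa4 and Cox7a2) were higher, beside 6.80% of all tested genes. Cox7a2l had 75.0, 56.9, 65.2, 67.2 and 66.9 CPM in the 5 iTBS libraries, 87.9, 72.9, 91.3, 84.6 and 77.0 CPM in the 5 cTBS libraries and 60.01, 72.7, 59.5, 83.1 and 65.4 CPM in the 5 sham libraries. Cox4i1 had 165, 124, 137, 139 and 134 CPM in the 5 iTBS libraries, 200.2, 149, 174, 183 and 167 CPM in the 5 cTBS libraries and 137, 165, 140.1, 167 and 138 CPM in the 5 sham libraries. Cox7a2l had a log2 fold change of 0.28 ± 0.10 with an adjusted p of 0.144 in edgeR. Cox4i1, the general form of a regulatory subunit, was at 0.23 ± 0.09 with an adjusted p of 0.158. The cTBS and sham ranges of Cox7a2l (ENSMUSG00000024248) and Cox4i1 (ENSMUSG00000031818) overlapped, and sham library 4 was the highest sham library in each.

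The 10 general subunits of complex IV had a median of 0.18, with 8 above 0. Of these 10, 2 were higher at unadjusted p under 0.05, beside 6.80% of all tested genes. The 4 tissue-restricted forms that were measured had a median of -0.13, with 1 above 0. Cox7c was at 0.21 ± 0.11, Cox6b1 at 0.17 ± 0.09 and Cox7b at 0.19 ± 0.10, none past the unadjusted threshold. Cox6c and Cox5a were at -0.03 ± 0.11 and -0.07 ± 0.28.

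In complex V, the median was 0.22. At unadjusted p under 0.05, 10 of 17 genes were higher, beside 6.80% of all tested genes. Atp5g3 had 89.1, 72.1, 68.9, 70.0 and 74.0 CPM in the 5 iTBS libraries, 94.7, 95.7, 92.3, 98.1 and 83.3 CPM in the 5 cTBS libraries and 74.3, 79.6, 67.3, 87.9 and 72.8 CPM in the 5 sham libraries. Atp5s had 12.3, 10.4, 11.1, 11.2 and 10.7 CPM in the 5 iTBS libraries, 14.1, 13.5, 14.4, 13.9 and 10.3 CPM in the 5 cTBS libraries and 10.4, 10.4, 9.57, 13.2 and 10.5 CPM in the 5 sham libraries. Atp5g3 (ENSMUSG00000018770) encodes the c subunit of the rotor, and Atp5s (ENSMUSG00000054894) the coupling factor known as factor B, the least abundant member of the complex per length. Their log2 fold changes were 0.28 ± 0.08 and 0.29 ± 0.10, each with an adjusted p of 0.144 in edgeR. In both genes the highest sham value was that of sham library 4 and the lowest cTBS value that of cTBS library 5.

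The 5 subunits of the catalytic F1 head all lay above 0 in cTBS over sham. At unadjusted p under 0.05, 3 of them were higher, beside 6.80% of all tested genes. These were the alpha subunit Atp5a1 at 0.22 ± 0.08, the gamma subunit Atp5c1 at 0.22 ± 0.08 and the epsilon subunit Atp5e at 0.33 ± 0.12. The beta subunit Atp5b was at 0.19 ± 0.10 and the delta subunit Atp5d at 0.12 ± 0.12. Of the c subunit genes, Atp5g2 was at 0.25 ± 0.10 and Atp5g1 at 0.13 ± 0.09. The inhibitor of the enzyme, Atpif1, lies outside the symbol rule and was at 0.02 ± 0.12. Atp5j2 and Atp5l, subunits of the membrane part, were the 2 genes of complex V below 0.

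**Figure D3:**
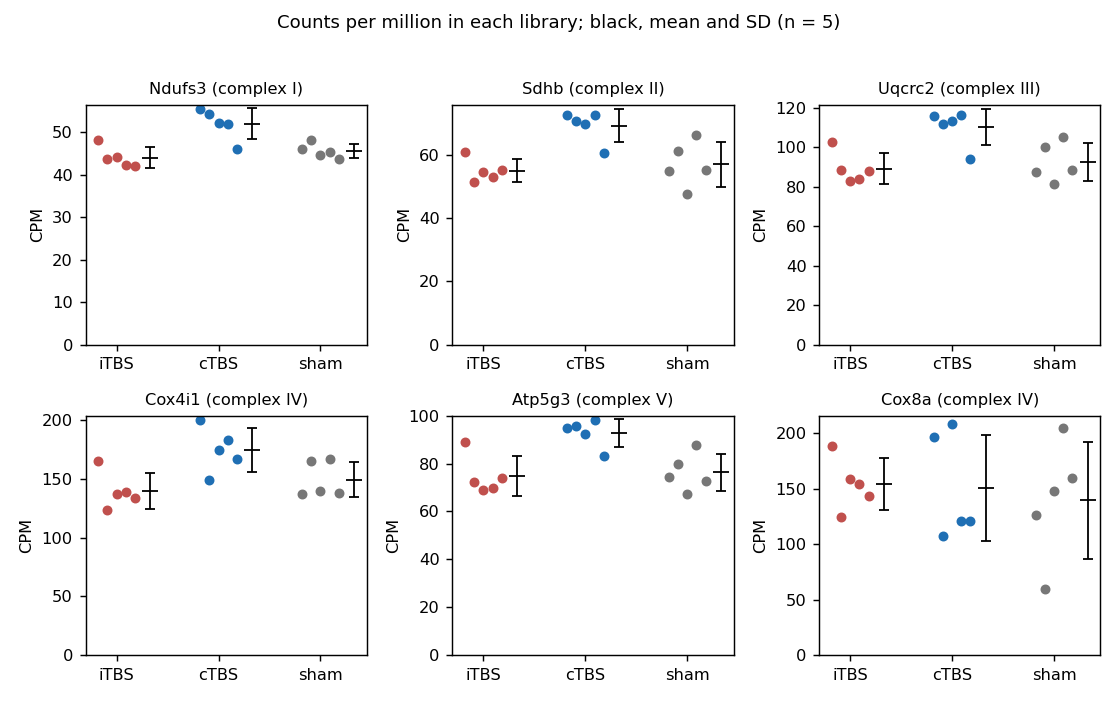
CPM in every library of Ndufs3, Sdhb, Uqcrc2, Cox4i1, Atp5g3 and Cox8a, with iTBS left of cTBS and sham; points are libraries and black bars the group mean and SD (n = 5). The cTBS mean is the highest of the 3 group means in the first 5 genes, with cTBS and sham values that overlap, and Cox8a spreads widely in every group.

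In cTBS over sham 9 members lay at or below 0, namely Ndufb2, Ndufb7, Cox4i2, Cox5a, Cox6a2, Cox6c, Cox7a1, Atp5j2 and Atp5l. In cTBS over sham 53.5% of all tested genes lay below 0. In these 9 members the union of annotated exons was a median of 3.26 times the messenger RNA length, against 1.72 times in the other members. Over the 80 members this ratio had a Spearman rho of only -0.13 with the cTBS over sham log2 fold change. Over the 80 members, the cTBS over sham log2 fold change was nearly unrelated to GC content (Spearman rho -0.01), messenger RNA length (0.08), gene span (0.02) or mean CPM (0.17). These coefficients are across genes of the same 15 libraries and carry no test.

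The comparison of iTBS with cTBS set the 2 patterns of stimulation against each other. No member passed an adjusted p of 0.05 in edgeR, the smallest adjusted p being 0.0838, and 0% of all tested genes passed it. At unadjusted p under 0.05, 55 of 80 members were lower in iTBS, against 10.6% of all tested genes, and none was higher, against 20.0%. The median log2 fold change was -0.24, against 0.03 over all tested genes and -0.04 over 15247 protein-coding genes. Of the 80 members, 72 lay below 0, against 46.1% of all tested genes and 9036 of the protein-coding genes. Of the protein-coding genes, 2308 were lower and 1394 higher at unadjusted p under 0.05. By complex, 27 of 35 genes of complex I, 4 of 4 of complex II, 7 of 8 of complex III, 7 of 16 of complex IV and 10 of 17 of complex V were lower at unadjusted p. This comparison and that of cTBS with sham use the same cTBS libraries.

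The count past the adjusted threshold was not stable across methods and libraries. DESeq2 placed 28 members past it, all lower in iTBS, beside 4.11% of all tested genes, and limma-voom with quality weights 53, beside 10.2%. Leaving out iTBS library 1 gave 56 members (8.62% of all genes), sham library 4 gave 44 (5.84%) and cTBS library 5 gave 29 (4.12%).

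In complex I, all 7 core subunits were lower in iTBS at unadjusted p, beside 10.6% of all tested genes. They ran from -0.30 ± 0.09 for Ndufs8 and -0.28 ± 0.08 for Ndufv1 to -0.15 ± 0.06 for Ndufs1. Ndufs3 was at -0.24 ± 0.06 with an adjusted p of 0.0838 in edgeR. For 3 members every iTBS value lay below every cTBS value, beside 1.70% of all tested genes, and all 3 belong to complex I (none had iTBS above cTBS throughout, beside 2.22%). Ndufs5 had 36.8, 31.2, 30.4, 34.6 and 35.1 CPM in the 5 iTBS libraries, 42.1, 40.3, 44.1, 47.0 and 38.3 CPM in the 5 cTBS libraries and 31.2, 41.6, 35.0, 42.6 and 35.2 CPM in the 5 sham libraries. Ndufa1 had 15.4, 12.4, 15.2, 14.8 and 13.6 CPM in the 5 iTBS libraries, 17.4, 15.6, 16.2, 18.5 and 17.5 CPM in the 5 cTBS libraries and 13.4, 16.4, 13.6, 15.1 and 14.1 CPM in the 5 sham libraries. Both are small accessory subunits of the membrane arm, and in both the gap between the iTBS and cTBS ranges was narrower than the range within either group, as it was in Ndufv1, where the highest iTBS value was 94.0 CPM and the lowest cTBS value 94.2 CPM.

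In complex II the iTBS over cTBS log2 fold change was -0.33 ± 0.08 for Sdhb, -0.31 ± 0.09 for Sdhd, -0.25 ± 0.09 for Sdhc and -0.18 ± 0.07 for Sdha. In complex III, Uqcrc2 was at -0.31 ± 0.08, Uqcrfs1 at -0.32 ± 0.10, Uqcrc1 at -0.26 ± 0.09 and Uqcrh at -0.23 ± 0.07, and Uqcrb at -0.19 ± 0.09 was the gene not past the unadjusted threshold. In complex IV, Cox4i1 was at -0.32 ± 0.09 and Cox7a2l at -0.32 ± 0.10, each with an adjusted p of 0.0838 in edgeR, and Cox6b1 at -0.31 ± 0.09. In complex V, Atp5c1 was at -0.31 ± 0.08, Atp5g3 at -0.31 ± 0.08 and Atp5a1 at -0.28 ± 0.08. Atp5b was at -0.20 ± 0.10 and was not past the unadjusted threshold.

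The comparison of iTBS with sham gave differences near 0. No member was past an adjusted p of 0.05 (0% of all tested genes were) or an unadjusted p of 0.05 in edgeR, against 0.952% of all tested genes higher and 0.974% lower at unadjusted p, and none was past the adjusted threshold in DESeq2. None had values that did not overlap, against 0.243% of all tested genes with iTBS above sham and 0.209% with iTBS below it. The median log2 fold change was -0.05, against -0.001 over all tested genes and -0.01 over 15247 protein-coding genes. Of the 80 members, 67 lay below 0, against 50.5% of all tested genes and 8463 of the protein-coding genes. Complex medians ran from -0.07 in complexes III and IV to -0.03 in complex V. The smallest p belonged to Ndufa3, an accessory subunit of complex I, at -0.15 ± 0.08 (unadjusted p of 0.105, edgeR), followed by Ndufs5 at -0.14 ± 0.09. Without sham library 4 the median of the members was 0.01, and without iTBS library 1 there were 5 members lower at unadjusted p under 0.05, beside 1.22% of all tested genes.

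In the other complexes the members with the smallest p for iTBS against sham were Sdha at -0.06 ± 0.07 and Sdhb at -0.05 ± 0.08 in complex II, Uqcrfs1 at -0.14 ± 0.10 and Uqcrh at -0.09 ± 0.07 in complex III, Cox6b1 at -0.15 ± 0.09 and Cox6b2 at -0.34 ± 0.28 in complex IV, and Atp5j at -0.11 ± 0.08 and Atp5c1 at -0.09 ± 0.08 in complex V. None of these differences was past an unadjusted p of 0.05. That of Cox6b2, which rests on few counts, was the lowest of the 80 members in this comparison.

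Balance between isoforms was compared by log2 ratios of counts for 6 pairs of genes in the 3 comparisons, 18 exact permutation tests in all, each two-sided over 252 assignments with a smallest possible p of 0.00794. None passed Benjamini-Hochberg adjustment. A ratio alone at that smallest exact permutation p reaches an adjusted p of only 0.143 over the 18 tests. A single ratio with fully separate groups therefore could not pass, and the adjusted result cannot decide whether it shifted. The ratio of Atp5g1 to Atp5g3 was 0.12, 0.08, 0.19, 0.11 and 0.15 in the 5 iTBS libraries, -0.04, -0.08, 0.02, 0.04 and -0.02 in the 5 cTBS libraries and 0.09, -0.04, 0.15, 0.12 and 0.35 in the 5 sham libraries. Atp5g1 had 97.0, 76.4, 78.8, 75.3 and 82.4 CPM in the 5 iTBS libraries, 92.1, 90.2, 93.4, 101.1 and 82.1 CPM in the 5 cTBS libraries and 79.0, 77.4, 74.7, 95.5 and 92.8 CPM in the 5 sham libraries. In this ratio every iTBS value lay above every cTBS value, and the sham values spread over both ranges. The difference of iTBS from cTBS was 0.15 (exact permutation p of 0.00794, adjusted p of 0.143), and that of cTBS from sham was -0.15 (exact permutation p of 0.0476, adjusted p of 0.286).

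Cox7a1 had 0.488, 0.749, 0.759, 0.909 and 0.511 CPM in the 5 iTBS libraries, 0.534, 0.806, 0.617, 0.337 and 0.733 CPM in the 5 cTBS libraries and 0.827, 0.967, 0.989, 0.821 and 0.585 CPM in the 5 sham libraries. Cox7a2 had 76.0, 52.0, 55.7, 61.5 and 55.9 CPM in the 5 iTBS libraries, 91.0, 64.4, 79.7, 70.6 and 67.8 CPM in the 5 cTBS libraries and 60.01, 68.2, 57.5, 71.4 and 58.0 CPM in the 5 sham libraries. The log2 ratio of Cox7a1 to Cox7a2 averaged -6.97 ± 0.57 in cTBS and -6.22 ± 0.30 in sham (SD, n = 5 each), a difference of -0.74 (exact permutation p of 0.0397, adjusted p of 0.286). Cox7a1 rested on 12 to 37 counts in a library. Ratios of Cox4i2 to Cox4i1, Cox6a2 to Cox6a1, Cox6b2 to Cox6b1 and Atp5g2 to Atp5g3 had unadjusted exact permutation p-values of 0.135 or more in every comparison.

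Of the other abundant partners, Atp5g2 and Cox6b1 had single values as follows. Atp5g2 had 48.6, 39.8, 40.7, 41.3 and 46.8 CPM in the 5 iTBS libraries, 58.0, 53.9, 55.3, 55.3 and 44.5 CPM in the 5 cTBS libraries and 42.8, 47.3, 37.3, 56.0 and 41.2 CPM in the 5 sham libraries. Cox6b1 had 103, 76.8, 86.6, 87.8 and 87.0 CPM in the 5 iTBS libraries, 116, 102, 114, 117 and 98.9 CPM in the 5 cTBS libraries and 84.5, 109, 88.4, 115 and 90.9 CPM in the 5 sham libraries. For Atp5g2, cTBS libraries 1 to 4 lay above every iTBS library, while for Cox6b1 iTBS library 1 reached the cTBS range, and in both sham library 4 was the highest sham library.

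The rare forms were counted on few reads in every library. Cox4i2 had 0.488, 0.419, 0.696, 0.753 and 0.670 CPM in the 5 iTBS libraries, 0.631, 0.924, 0.533, 0.457 and 0.434 CPM in the 5 cTBS libraries and 0.504, 0.851, 0.676, 0.643 and 0.682 CPM in the 5 sham libraries. Cox6b2 had 0.841, 0.689, 0.443, 0.533 and 0.383 CPM in the 5 iTBS libraries, 0.679, 0.569, 0.785, 0.963 and 0.787 CPM in the 5 cTBS libraries and 0.791, 0.426, 0.572, 0.932 and 0.942 CPM in the 5 sham libraries. Cox6a2 had 3.34, 2.13, 4.81, 2.88 and 3.86 CPM in the 5 iTBS libraries, 3.06, 2.32, 3.81, 3.30 and 2.47 CPM in the 5 cTBS libraries and 2.55, 3.40, 2.50, 3.62 and 3.87 CPM in the 5 sham libraries. Within each of these 3 genes the 3 groups overlapped, and no library held more than 4.81 CPM of any.

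The members varied together across libraries. After removal of group means, the median Pearson correlation over pairs of members was 0.526 over the 15 libraries, against -0.001 over pairs among 2300 tested genes taken at even steps. Each pair shares libraries, depth and the same correction for group, so the value describes these libraries and carries no test. The main axis of shared variation (first principal component) held 44.9% of the variance of the members and 54.3% of that of all genes. Shared variation between libraries was thus not particular to the members. Atp5c1, Atp5f1 and Ndufv2 followed the mean of the other members most closely, with r of 0.955, 0.935 and 0.934. Ndufb2 and Cox7a1 ran against it, with r of -0.574 and -0.538. The biological coefficient of variation, edgeR's estimate of spread between animals beyond counting, had a median of 10.6% over the members and 16.7% over all tested genes. The members are all protein-coding, as are 15247 of the 22998 tested genes. The 2 sets were not matched for gene type or level, so these medians do not compare like genes.

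Cox8a, Cox5b and Cox6a1, 3 general subunits of complex IV, spread widely and together. They were picked out after their values had been seen, so no test is given. Their biological coefficients of variation were 27.7%, 25.9% and 19.0%, and that of Cox5a was 30.9%. Cox8a had 189, 125, 159, 155 and 144 CPM in the 5 iTBS libraries, 197, 107, 209, 121 and 121 CPM in the 5 cTBS libraries and 126, 59.7, 148, 204 and 159.8 CPM in the 5 sham libraries. Cox5b had 93.3, 58.8, 77.1, 78.0 and 69.8 CPM in the 5 iTBS libraries, 96.6, 52.8, 98.2, 60.7 and 52.5 CPM in the 5 cTBS libraries and 58.7, 35.7, 78.9, 97.6 and 80.7 CPM in the 5 sham libraries. Cox6a1 had 166, 117, 158, 132 and 137 CPM in the 5 iTBS libraries, 182, 120.3, 179.6, 150.3 and 138 CPM in the 5 cTBS libraries and 126, 80.0, 132, 184 and 145 CPM in the 5 sham libraries. All 3 were lowest in sham library 2, and cTBS libraries 1 and 3 were well above cTBS libraries 2, 4 and 5.

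Over the 15 libraries the deviations of Cox5b from its group means followed those of Cox8a with a Pearson r of 0.981 (Spearman rho 0.982), and those of Cox6a1 with 0.963 (0.961). Without the 2 libraries farthest from the median of Cox8a, r was 0.978 and 0.913. Cox5a followed less closely at 0.690 (0.729), Cox4i1 at 0.243 (0.489) and Sdhb at 0.125 (0.264). Without the same 2 libraries, r was 0.757 for Cox5a, 0.571 for Cox4i1 and 0.213 for Sdhb. Atp5d of complex V followed Cox8a more closely than Cox5a did, with a Pearson r of 0.828 over the 15 libraries. Outside the members, the genes most like Cox8a were Il17d, Prr7, Tpgs1 and Maz, with r of 0.959, 0.959, 0.956 and 0.955.

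Genes of high GC content followed Cox8a more closely than genes of low GC content. The GC content was 58.5% in Cox8a, 58.8% in Cox6a1 and 52.5% in Cox5b. Over 10749 protein-coding genes in 10 equal bins of GC content, the median correlation with Cox8a was -0.16 in the bin with the lowest GC content and 0.44 in the bin with the highest. Relative to the mean of the 15 libraries, the level of GC-rich over GC-poor genes was lowest in sham library 2, at -0.264 on the log2 scale, and highest in iTBS library 3, at 0.126. The 2 measures did not run together in every library: Cox8a was at 0.16 in iTBS library 3, and at 0.47 in cTBS library 1, where the level of GC-rich over GC-poor genes was -0.045. Zbed5 and Hist1h2bc followed Cox8a with r of 0.930 and 0.921 at GC contents of 48.3% and 45.9%. The part of GC content in the spread of these genes was not tested. Without sham library 2, the cTBS over sham log2 fold changes were -0.08 for Cox8a, -0.13 for Cox5b and 0.07 for Cox6a1, against 0.11, 0.03 and 0.20 with all libraries. Without sham library 4 they were 0.35, 0.24 and 0.40, and Cox6a1 then had an adjusted p of 0.0754 in edgeR.

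**Figure D4:**
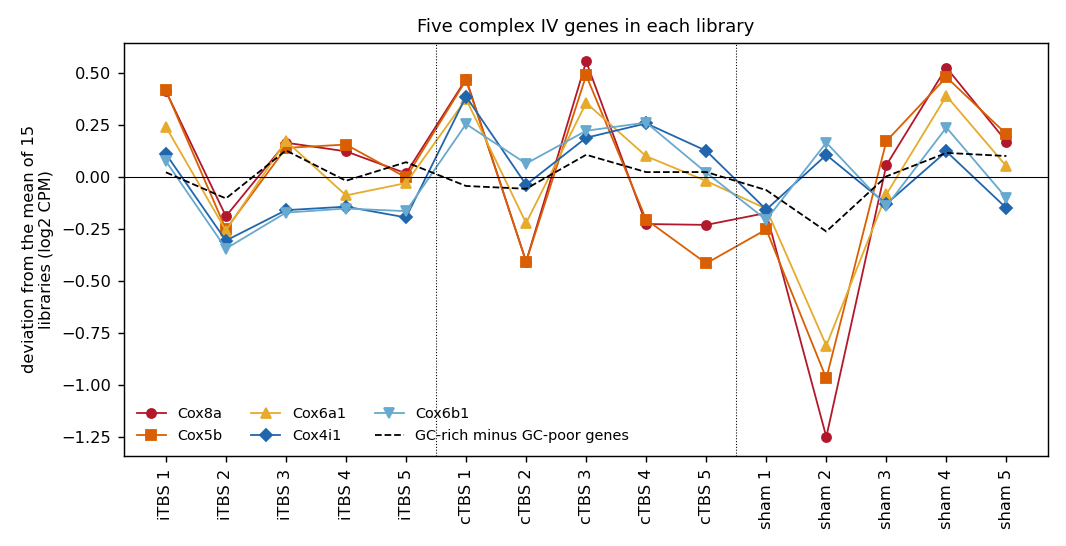
Deviation of Cox8a, Cox5b, Cox6a1, Cox4i1 and Cox6b1 from the mean of the 15 libraries (log2 CPM) in each library, with GC-rich minus GC-poor genes as a dashed line and iTBS libraries left of cTBS and sham. Lines of Cox8a, Cox5b and Cox6a1 move together (r with Cox8a of 0.981 and 0.963) and are lowest in sham library 2, where Cox4i1 and Cox6b1 lie above 0.

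The level of nuclear-retained RNA was lowest in cTBS, the group in which the members were highest. It averaged 7.65 ± 0.49 log2 CPM in iTBS, 6.77 ± 0.52 in cTBS and 7.58 ± 0.66 in sham (SD, n = 5 each). In cTBS over sham, 10 of its 11 RNAs were lower at unadjusted p under 0.05, beside 17.6% of all tested genes. The median log2 fold change of the 11 was -0.99, and Kcnq1ot1 at -1.41 ± 0.42 had the smallest p. In iTBS over cTBS, 9 of 11 were higher at unadjusted p, beside 20.0% of all tested genes, with a median of 0.98. Sham library 4 and iTBS library 1, the libraries whose member levels reached the cTBS range, had the lowest values of this list in their groups. They also had the largest library totals of their groups. With this level as a covariate, the members' median was 0.051 in cTBS over sham, with 1 member at unadjusted p under 0.05 beside 5.82% of all tested genes, and -0.084 in iTBS over cTBS, with 8 beside 7.74%. By complex, the cTBS over sham medians were then 0.046 in complex I, 0.129 in II, 0.057 in III, -0.052 in IV and 0.070 in V. Since the covariate itself differed between the groups, its share and that of stimulation cannot be told apart.

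**Figure D5:**
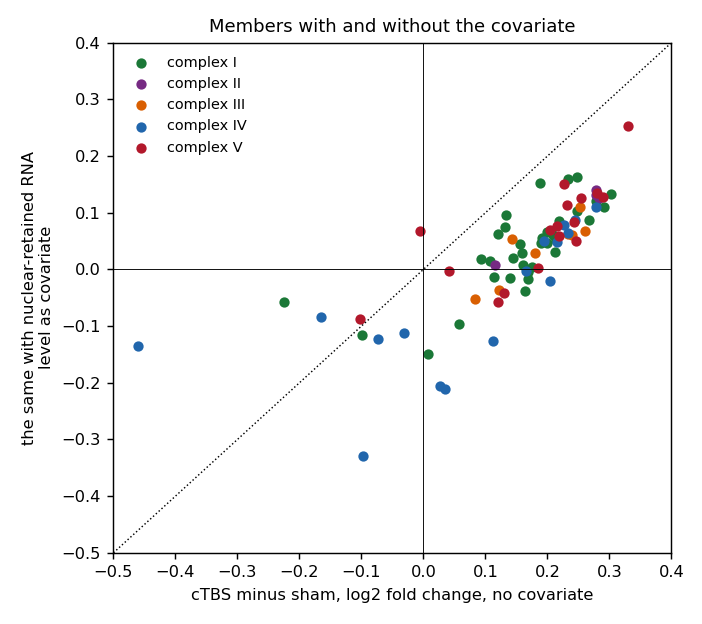
log2 fold change of cTBS over sham of each of the 80 members with the level of nuclear-retained RNA as a covariate (vertical) against the same without it (horizontal), coloured by complex; the dotted line marks equal values. Most members lie below the line, and the median is 0.051 with the covariate and 0.19 without it.

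Markers of other cells also differed between the groups. Striatal projection neuron markers were above 0 in cTBS over sham in 10 of 10, with a median of 0.67, and their mean level ranged from 5.15 to 6.76 log2 CPM in iTBS, 5.17 to 6.76 in cTBS and 4.53 to 6.48 in sham. None of the 10 was absent, the lowest having a mean of 21.4 CPM. With the striatal level as a covariate the members' median was 0.25 in cTBS over sham and -0.26 in iTBS over cTBS, and with both covariates it was 0.09 and -0.11. Oligodendrocyte markers were above 0 in 7 of 7 (median 0.22), microglial markers in 7 of 7 (0.18) and astrocyte markers in 7 of 7 (0.12), while excitatory neuron markers were above 0 in 2 of 7 (-0.07). Meningeal markers were above 0 in 5 of 6 (0.27) and thalamic markers in none of 8 (-0.39). The thalamic difference rested on sham library 2, with a mean marker level of 4.51 log2 CPM. The other sham libraries had 2.54 to 2.68 and the cTBS libraries 2.66 to 3.01. In iTBS over cTBS, oligodendrocyte markers were below 0 in 7 of 7 (median -0.29), with 5 at unadjusted p under 0.05, beside 10.6% of all tested genes. Microglial markers were below 0 in 7 of 7 (-0.19) and astrocyte markers in 7 of 7 (-0.17), beside the members' median of -0.24. Oligodendrocyte levels ranged from 7.26 to 7.80 log2 CPM in iTBS, 7.62 to 8.13 in cTBS and 7.45 to 7.96 in sham. With the level of nuclear-retained RNA as a covariate, the cTBS over sham medians were 0.14 for oligodendrocyte, 0.057 for microglial and 0.009 for astrocyte markers. Those of iTBS over cTBS were then -0.23, -0.030 and -0.012. The part of these glial levels in the members' differences was not tested. Without the 3 libraries rich in choroid plexus markers, the members' median in cTBS over sham was 0.21, with 22 at unadjusted p under 0.05 beside 11.2% of all tested genes.

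Genes around the chain were taken from lists of neighbouring functions. The 13 subunits encoded by mitochondrial DNA had a median of -0.12 in cTBS over sham, with 4 above 0, beside 46.5% of all tested genes. None was at unadjusted p under 0.05, beside 6.80% of all tested genes higher and 17.6% lower. Their mean level ran from 8.68 to 9.78 log2 CPM in cTBS, on both sides of the sham range of 9.08 to 9.64. In iTBS over cTBS their median was 0.14, with 10 above 0, beside 12390 of 22998 tested genes. The 2 with the smallest p in both comparisons were mt-Nd4l and mt-Nd4, complex I subunits whose genes overlap, at -0.31 ± 0.19 and -0.27 ± 0.17 in cTBS over sham. Medians of the nuclear and the mitochondrial subunits thus had opposite signs in these comparisons without a covariate. With the level of nuclear-retained RNA as a covariate, the mitochondrial medians were 0.009 in cTBS over sham and -0.007 in iTBS over cTBS. These had the same signs as the members' medians of 0.051 and -0.084 in that fit. The difference between the lists was not tested.

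Citric acid cycle enzymes lay above 0 in cTBS over sham in 17 of 17, against 46.5% of all tested genes, with a median of 0.14 and 6 at unadjusted p under 0.05, where 6.80% of all tested genes were higher. The smallest p belonged to Pdhb, a subunit of pyruvate dehydrogenase, at 0.16 ± 0.06, and to Suclg1, of succinyl-CoA ligase, at 0.19 ± 0.07. In iTBS over cTBS 17 of 17 lay below 0, against 46.1%, with a median of -0.18 and 12 at unadjusted p, where 10.6% of all tested genes were lower, led by Dld at -0.20 ± 0.07 and Pdhb at -0.17 ± 0.06. With the level of nuclear-retained RNA as a covariate, the medians of these enzymes were 0.013 in cTBS over sham and -0.040 in iTBS over cTBS. Regulators of mitochondrial biogenesis had a median of 0.02 in cTBS over sham, with 2 of 12 higher at unadjusted p, beside the same 6.80%. These were Ppargc1a, the coactivator PGC-1alpha, at 0.15 ± 0.05 (adjusted p of 0.144, edgeR) and Tfb2m, a mitochondrial transcription factor, at 0.16 ± 0.06. In iTBS over cTBS 4 of 12 were lower at unadjusted p, beside 10.6%, led by Tfb2m at -0.19 ± 0.06 and Tfam at -0.18 ± 0.08.

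Respiratory subunits and carriers that the symbol rule missed had 2 of 8 higher at unadjusted p in cTBS over sham, beside 6.80% of all tested genes. These were Cyc1, the cytochrome of complex III, at 0.20 ± 0.08 and Dhodh, which feeds electrons to ubiquinone from pyrimidine synthesis, at 0.27 ± 0.09. In iTBS over cTBS 3 of 8 were lower, beside 10.6%, led by Cyc1 at -0.26 ± 0.08 and cytochrome c (Cycs) at -0.24 ± 0.08. Assembly factors build the complexes and are not part of them. In cTBS over sham, 6.80% of all tested genes were higher and 17.6% lower at unadjusted p. Of the assembly factors, 3 of 16 were higher for complex I, none of 4 for complex II and 2 of 6 for complex III. For complex IV 6 of 19 were higher and 1 lower, and for complex V 2 of 5 were higher. The median log2 fold changes of the assembly factors were 0.03, 0.11, 0.11, 0.13 and 0.16 for complexes I to V. Examples were Coa6 at 0.40 ± 0.13 and Sco1 at 0.28 ± 0.10 for complex IV, Ndufaf3 at 0.27 ± 0.10 for complex I and Uqcc3 at 0.27 ± 0.11 for complex III. In iTBS over cTBS the assembly factors lower at unadjusted p numbered 3, 1, 2, 5 and 2 for complexes I to V (10.6% of all tested genes were). Among them were Surf1 of complex IV at -0.25 ± 0.06 and Atpaf1 of complex V at -0.20 ± 0.06. Of the 19 factors of complex IV, 2 were higher, beside 20.0% of all tested genes.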

How the data were processed

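Cortex RNA of 15 mice, 5 per group, was sequenced as total RNA after ribosomal RNA depletion, per the labels' protocols. The authors deposited raw counts per Ensembl gene and variance-stabilized values on a log2 scale. STAR, fastp and DESeq2 are listed beside GRCm39 (mm39), per the submitters' processing notes, without roles or versions. Neither the read counter nor its strand setting is stated, so the 28 members that share exonic bases with another gene (25 with one on the opposite strand, among them Ndufs3, Uqcrc2, Cox4i1 and Cox5a) are uncertain. Gene symbols came by Ensembl identifier from an annotation of GRCm38, which named 52073 of 56748 identifiers and 97.7% of counts. No row lacked a gene identifier.

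Counts of all 15 libraries were fitted together with edgeR 4.0.16 in R 4.3.3 (TMM scaling, edgeR's expression filter, quasi-likelihood tests, Benjamini-Hochberg adjustment over 22998 genes, which hold 99.9% of counts). Levels in log2 CPM use a prior count of 2, and ratios of counts a prior of 0.5. Alternatives used DESeq2 1.42.0 and limma 3.58.1, the latter also on the deposited log2 values, other scalings and filters, covariates, a replicate block and fits without each library. Promoters were read with Python 3.11.15. The code was tested on simulated counts. Depth was 15385070 to 47807723 counts a library; the deepest libraries have the least counting error. No pair of libraries in a group agreed within sampling noise (chi-square per degree of freedom of 7.13 to 56.2 over 30 pairs). The p-values measure the spread between animals.

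Genes named in the text were the core, catalytic, isoform and c subunit genes, the complex V inhibitor and the 2 members of each complex with the smallest p in each comparison. Values in every library are given for the 2 members of each complex with the smallest p for cTBS against sham and for isoform pairs. Members outside this rule were named after their values were seen: Ndufa1, Ndufa4, Ndufb11, Uqcrb, Uqcrq, those of the 9 at or below 0, the extremes of correlation, and the promoter examples Ndufa10, Ndufa11, Uqcr11, Atp5h and Atp5k. So were the values by library of Ndufs5, Ndufa1 and the Cox8a group. The members and lists were chosen with earlier results of these data known. 1 member falls under the rule and is counted in the totals, but its own values are not reported here.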

Additional observations from a re-analysis of the deposited data

Results flagged for a closer look

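In 11 of 141 groups of 5 libraries, a library stood so far from its nearest neighbour that the gap exceeded 0.71 of the group's range, where chance gives about 1 in 20. In iTBS library 1 these were Ndufa3 at 31.2 CPM, Sdhd at 41.0 CPM, Uqcrc2 at 103 CPM, Uqcrfs1 at 46.7 CPM and Atp5g3 at 89.1 CPM, each the highest iTBS value. In cTBS library 5 they were Sdhb at 60.5 CPM, Uqcrc2 at 94.3 CPM and Atp5s at 10.3 CPM, each the lowest cTBS value. In sham library 4 they were Ndufv2 at 95.4 CPM, Atp5s at 13.2 CPM and the mean level of complex III at 5.85 log2 CPM, each the highest sham value.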

How the results depend on the processing

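No named member passed the adjusted threshold in the direction opposite to its edgeR estimate. Estimates short of that threshold took the opposite sign in 50 pairs of gene and setting for cTBS against sham, 43 for iTBS against cTBS and 73 for iTBS against sham, among them Cox6b1 and Ndufv2 in cTBS against sham and Atp5b and Atp5g1 in iTBS against cTBS, each called under 1 or 2 other settings. The labels give no pairing of the animals by replicate number. Of 15 same-numbered pairs of libraries 7 had deviations correlated above 0.1 (-0.564 to 0.717), and 2 libraries correlated best with their own number. These correlations cannot decide whether animals of the same number shared a batch. With a replicate block, 41 members were at unadjusted p under 0.05 in cTBS against sham (24.4% of all tested genes), 59 in iTBS against cTBS (31.7%) and none in iTBS against sham (2.32%), and none passed the adjusted threshold.

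For cTBS against sham, members past the adjusted threshold numbered 0 in edgeR, 45 with voom quality weights and 0 to 47 when single libraries were left out (47 without sham library 4). Members at unadjusted p under 0.05, 36 in both directions together beside 24.4% of all tested genes, were 60 with voom quality weights (40.0%), 1 with the nuclear RNA covariate (5.82%), 1 with both covariates (5.47%), 22 without the choroid plexus libraries (11.2%; chosen after seeing the data, as was the fit with both covariates) and 25 to 62 when single libraries were left out (14.7% to 41.6%). The median of 0.19 was 0.051 with the nuclear RNA covariate and 0.15 to 0.30 when single libraries were left out. The causes were not tested.

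For iTBS against cTBS, members past the adjusted threshold were 28 with DESeq2, 53 with voom quality weights and 0 to 56 when single libraries were left out. Members at unadjusted p, 55 in edgeR beside 30.6% of all tested genes, were 8 with the nuclear RNA covariate (7.74%), 8 with both covariates (6.47%) and 38 to 63 when single libraries were left out (20.6% to 39.1%). The median of -0.24 was -0.084 with the nuclear RNA covariate, -0.11 with both covariates and -0.34 to -0.21 when single libraries were left out. For iTBS against sham, members at unadjusted p were 0 in edgeR (1.93%), 1 with the nuclear RNA covariate (3.55%) and 0 to 5 when single libraries were left out (1.46% to 2.42%), none passed the adjusted threshold, and the median ran from -0.10 to 0.01. Cox4i2, Cox7a1 and Cox6b2 are limited by depth.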
